A study of Mus musculus with 18 samples.

Results

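The transcripts of 10 genes of necroptosis and TNF receptor death signalling were followed through colon RNA-seq of WT mice and of mice lacking *Cldn2*, the gene of claudin-2, a protein of tight junctions. The genes were *Tnfrsf1a*, *Tradd*, *Ripk1*, *Cyld*, *Fadd*, *Casp8*, *Cflar*, *Ripk3*, *Mlkl* and *Zbp1*. They were picked by name for their place in the pathway, with earlier results of these data known, and are 10 of the 47729 genes in the count table. All 10 passed the filter on low counts, which kept 16937 genes.

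All mice had a C57BL/6 background. The *Cldn2*KO line was bred with WT mice, and the methods describe WT littermates matched for age and sex. *Xist* levels, given further on, differed between libraries of 3 groups, so sex was not the same throughout. Mice of each genotype were controls with no treatment named in their labels, were in recovery after colitis due to DSS (dextran sulfate sodium, which damages the lining of the colon; neither its dose nor the length of recovery is in the labels), or had received AOM/DSS, a single dose of the carcinogen azoxymethane (AOM) at 10 mg/kg with 3 cycles of 2.5% DSS. Each of the 6 groups held 3 libraries of total RNA, 18 in all, and the labels name the tissue as colon with no segment. Ages are not in the labels. Nothing in the labels says that the libraries of a group came from separate mice, so p-values measure the spread between these libraries. In WT recovery, *Cldn2*KO recovery and *Cldn2*KO AOM/DSS the *Xist* levels show that more than 1 mouse was sampled, and WT control replicate 2 differs from its group in *Hoxb13*. For the other groups the labels do not say how far the spread is technical. In whole tissue, fewer cells of a type and less RNA per cell cannot be told apart.

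When TNF binds its receptor TNFR1 (*Tnfrsf1a*), the adaptor TRADD and the kinase RIPK1 gather at the receptor and signal for survival and inflammation. If that complex is dismantled, RIPK1 can join FADD and caspase-8 and start apoptosis. Where caspase-8 is not active, RIPK1 can instead engage RIPK3, which phosphorylates MLKL, and MLKL then breaks the plasma membrane, the lytic death called necroptosis. ZBP1, a sensor of Z-form nucleic acids whose gene is induced by interferons, can activate RIPK3 without the receptor. In the gut, epithelial caspase-8 and FADD are known for holding RIPK3 and MLKL in check.

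Each library held between 17.6 and 27.4 M counted reads. The knocked-out gene held at most 0.557 counts per M reads (CPM, scaled with TMM factors) in every *Cldn2*KO library and between 44.5 and 504 CPM in WT libraries, with the lowest value in WT control replicate 2. The 8 epithelial markers summed to at least 13222 CPM in every library. *Hoxb13*, a gene of the distal colon, stood at or below 0.502 CPM in all 6 recovery libraries and in WT control replicate 2, against at least 198 CPM in the other 11. The study's text places its recovery samples in the distal colon, which these *Hoxb13* levels do not match, so the segment behind the recovery libraries and WT control replicate 2 is uncertain. *Xist* was at least 865 CPM in 6 libraries (replicates 2 and 3 of *Cldn2*KO AOM/DSS, WT recovery and *Cldn2*KO recovery) and did not exceed 1.16 CPM in the others. WT control replicate 2 also had the highest T and NK cell markers of the controls. For the 10 genes, values without one of these libraries are given where leaving it out changed a call. Changes of sign are counted in the closing section, with values for some of the pairs only.

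Levels of different genes were compared per length, as reads per kilobase of exon per M reads (RPKM). *Casp8* (median of 18 libraries 57.9 RPKM) and *Tradd* (54.5 RPKM) were the most abundant of the 10. *Tnfrsf1a* (21.8 RPKM), *Ripk3* (18.2 RPKM), *Zbp1* (17.3 RPKM) and *Mlkl* (13.5 RPKM) followed, then *Cyld* (8.55 RPKM), *Ripk1* (7.13 RPKM), *Cflar* (6.59 RPKM) and *Fadd* (3.49 RPKM). In that order, only *Tradd* and *Tnfrsf1a*, and *Cflar* and *Fadd*, had ranges over the 18 libraries that did not overlap; every other pair of neighbours did. The length is that of all annotated exons of a gene, 12669 bases for *Cflar* against 1866 for *Tradd*, so a gene with many transcript forms reads low on this scale.

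**Figure D1:**
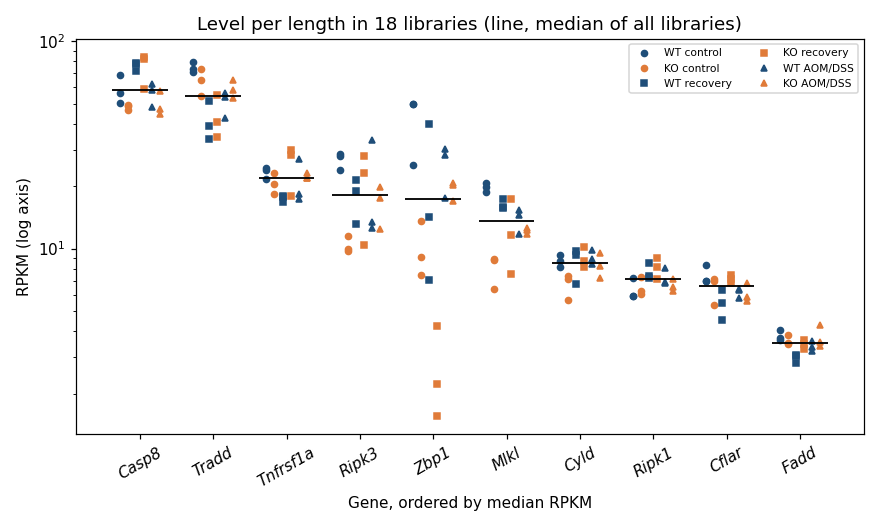
RPKM of the 10 genes on a log axis, 1 point per library with colour and marker for the 6 groups and a line at the median of the 18 libraries. *Casp8* and *Tradd* lead, and *Zbp1* covers the widest range, from 1.55 to 49.6 RPKM.

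The genes differed in how much they varied. From the lowest to the highest library *Zbp1* covered 32.0-fold in CPM, *Ripk3* 3.43-fold, *Mlkl* 3.23-fold and *Tradd* 2.35-fold. The remaining 6 genes covered between 1.52-fold (*Fadd*) and 1.88-fold (*Casp8*). The sensor, the kinase and the effector of necroptosis therefore covered the widest ranges. Reads per library ranged from 118 for *Zbp1* in *Cldn2*KO recovery replicate 2 to 5526 for *Casp8* in WT recovery replicate 1.

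**Figure D2:**
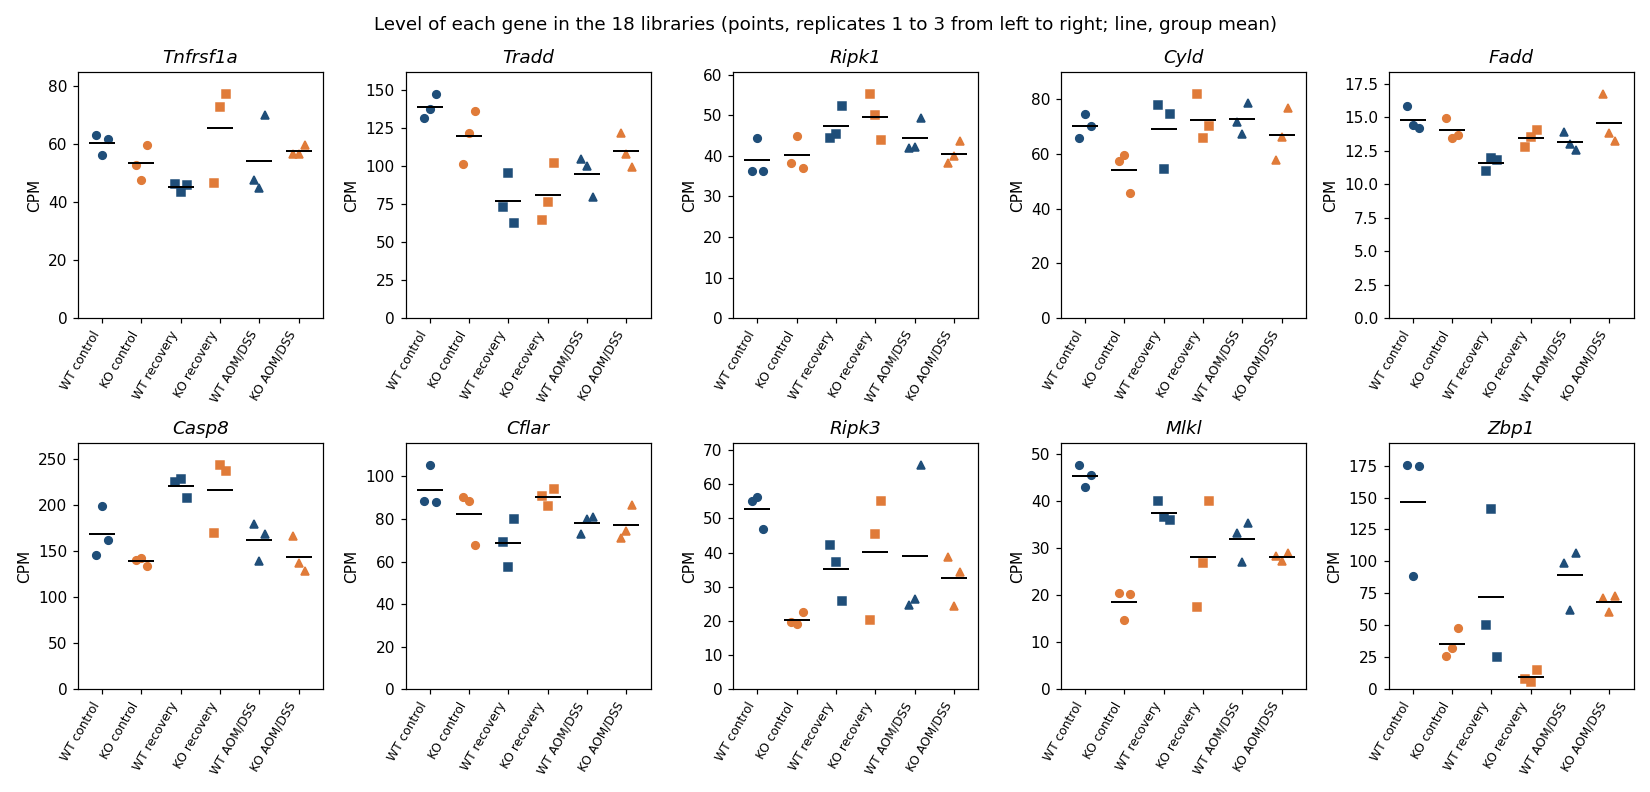
CPM of each gene in the 6 groups, with 3 points per group in the order of replicates 1 to 3 and a line at the group mean; every axis starts at 0. *Zbp1*, *Ripk3* and *Mlkl* in the controls lie lower in every *Cldn2*KO library than in every WT library.

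The first comparison asked which of these genes differed between genotypes in untreated colon. The effector *Mlkl* was lower in *Cldn2*KO controls and was the only one of the 10 called, at an adjusted p under 0.05 in edgeR's quasi-likelihood test; 1.05% of all genes tested were called lower. *Zbp1* and *Ripk3* had larger differences but did not pass. Of the 10 genes, 9 had a negative log2 fold change, and 4 (*Mlkl*, *Zbp1*, *Ripk3* and *Cyld*) had an unadjusted p under 0.05 in that direction, against 8.87% of all genes. The median log2 fold change was -0.25, beside -0.0055 over all genes tested.

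*Mlkl*, at chr8:111311797-111338177 on the minus strand (GRCm38), encodes the pseudokinase that permeabilises the membrane. It stood at 47.6, 42.9 and 45.5 CPM in WT controls and at 20.5, 14.8 and 20.3 CPM in *Cldn2*KO controls (replicates 1 to 3). Every knockout library lay below every WT library, with a gap wider than the spread in either group. On the log2 scale the difference was -1.29 ± 0.22 (SE; edgeR adjusted p = 0.0102, lower in 3 of 3 libraries). Leaving out knockout control replicate 1 gave -1.37 (edgeR adjusted p = 0.0523), and leaving out replicate 2 gave -1.15 (0.0889; range over alternatives 2.01e-05 to 0.0889).

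*Ripk3*, at chr14:55784995-55788865 on the minus strand, encodes the kinase that phosphorylates MLKL. Its values were 55.2, 56.3 and 46.9 CPM in WT controls and 19.6, 19.1 and 22.6 CPM in *Cldn2*KO controls. The groups were far apart on this scale, yet the log2 fold change of -1.37 ± 0.37 did not pass (edgeR adjusted p = 0.0923). With only the control groups in the fit it was -1.38 (edgeR adjusted p = 0.0129; range over alternatives 0.000821 to 0.339).

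*Zbp1*, at chr2:173206612-173218923 on the minus strand, stood at 175, 88.9 and 175 CPM in WT controls and at 26.4, 32.2 and 47.7 CPM in *Cldn2*KO controls. WT control replicate 2 was the lowest of its group and still above every knockout control. The log2 fold change was -2.05 ± 0.52 (edgeR adjusted p = 0.0712), and without WT control replicate 2 it was -2.33 (edgeR adjusted p = 0.0491; range over alternatives 2.53e-05 to 0.335).

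The other genes differed less between the control groups. *Casp8*, the protease that starts apoptosis and holds necroptosis back, read 146, 199 and 162 CPM in WT controls and 140, 142 and 134 CPM in *Cldn2*KO controls. *Cyld*, the deubiquitinase that takes ubiquitin chains off RIPK1, read 65.8, 74.5 and 70.0 CPM against 57.3, 59.5 and 45.5 CPM. Both were lower in every knockout library without passing the test (log2 fold changes -0.28 and -0.37). In all, 5 of the 10 genes (*Mlkl*, *Ripk3*, *Zbp1*, *Casp8* and *Cyld*) had control groups that did not overlap, all lower in the knockout, as did 10.7% of all genes in that direction. The interval of the log2 fold change was -0.24 to 0.33 for *Ripk1*, -0.37 to 0.22 for *Fadd*, -0.50 to 0.12 for *Cflar*, -0.57 to 0.21 for *Tnfrsf1a* and -0.61 to 0.18 for *Tradd* (95%).

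Immune and muscle markers differed between the control groups as well. The 10 T and NK cell markers summed to between 2.72 and 11.9 CPM in *Cldn2*KO controls and between 13.7 and 154 CPM in WT controls, and 4 of them were called lower. The 8 B and plasma cell markers summed to 13.5 to 171 CPM against 740 to 907 CPM, and 2 were called lower. Smooth muscle markers summed to 7733 to 10145 CPM in the knockout and 3785 to 5676 CPM in WT, with 0 of 8 called and 1 at an unadjusted p under 0.05. Their part in the differences of *Mlkl*, *Ripk3* and *Zbp1* was not tested.

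The bases before the transcription start of *Mlkl* and *Ripk3* are shown because the transcripts of these partner genes were both low in the knockout controls. Both are the 250 bases upstream of the RefSeq start (GRCm38.p6), 5′ to 3′ on the minus strand, at chr8:111338206-111338455 and chr14:55788858-55789107. Capitals would mark matches to the interferon-stimulated response element or the gamma-activated site, described next, and there are none.
Mlkl: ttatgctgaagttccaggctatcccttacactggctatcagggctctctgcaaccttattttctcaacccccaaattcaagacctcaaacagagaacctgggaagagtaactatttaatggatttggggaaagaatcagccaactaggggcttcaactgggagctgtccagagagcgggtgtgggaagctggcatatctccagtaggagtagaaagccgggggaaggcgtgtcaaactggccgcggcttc
Ripk3: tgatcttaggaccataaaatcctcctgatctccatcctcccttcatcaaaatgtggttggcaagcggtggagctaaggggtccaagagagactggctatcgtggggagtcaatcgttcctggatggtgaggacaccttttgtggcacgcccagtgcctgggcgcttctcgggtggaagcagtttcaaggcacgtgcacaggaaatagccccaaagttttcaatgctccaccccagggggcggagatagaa

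Windows of 300 bases (250 before to 50 after the start) were available for 8 of the 10 genes, 9 windows in all, with none for *Zbp1* or *Tradd*. The core of the interferon-stimulated response element (GAAA, any 2 bases, then GAAA) was searched on both strands and occurred in 3.44% of 32851 windows. TTCNNNGAA, the palindromic gamma-activated site, occurred in 8.3% of windows, and the kappaB motif in 8.46%. None of the 3 was present in the *Mlkl*, *Ripk3*, *Casp8* or *Fadd* windows, which says only that these letters are not there. The response element letters were present in *Cflar* (bases 7 to 16 after the start) and in the second of the *Ripk1* windows (from base -5 to 5), the gamma-activated letters in that *Ripk1* window and in *Tnfrsf1a*, and the kappaB motif in *Cyld*.

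In recovery from DSS colitis the sensor differed between genotypes. *Zbp1* was lower in *Cldn2*KO recovery and was the only one of the 10 called, among 0.425% of all genes called lower. *Tnfrsf1a*, *Cflar* and *Fadd* were higher in every knockout library than in every WT library, as were 12.3% of all genes, and none of the 3 passed the test. *Ripk3* and *Mlkl*, the pair that was low in the knockout controls, overlapped between genotypes here. The median log2 fold change of the 10 genes was 0.072, beside 0.0042 over all genes.

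*Zbp1* read 50.3, 141 and 25.0 CPM in recovered WT colon against 7.87, 5.47 and 14.96 CPM in recovered *Cldn2*KO colon. The WT libraries spread widely, and the lowest of them was above the highest knockout library. Its log2 fold change was -2.93 ± 0.54 (edgeR adjusted p = 0.0271, lower in 3 of 3). It was -2.02 without WT recovery replicate 2 and -2.65 without *Cldn2*KO recovery replicate 2, and the edgeR adjusted p rose to 0.108 and 0.186 (range over alternatives 2.08e-06 to 0.189). Within this comparison all 6 libraries lacked *Hoxb13*, and the same replicate numbers were high in *Xist* in both genotypes. WT recovery replicate 2, the highest for *Zbp1*, also had the highest summed T and NK cell markers (190 CPM, against 62.8 and 66.4 in its group and 28.9 to 42.5 in the knockout). Summed B and plasma cell markers were 91.4 to 132 CPM in WT and 17.1 to 20.9 CPM in *Cldn2*KO recovery. The part of these markers in the difference was not tested.

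*Tnfrsf1a*, at chr6:125349362-125362484 on the plus strand, read 46.2, 43.5 and 45.8 CPM in WT recovery and 46.5, 72.9 and 77.3 CPM in *Cldn2*KO recovery. The receptor's WT values were tight, and *Cldn2*KO replicate 1 lay next to them. The log2 fold change was 0.54 ± 0.18 (edgeR adjusted p = 0.12), and without *Cldn2*KO recovery replicate 1 it was 0.73 (edgeR adjusted p = 0.0338; range over alternatives 0.027 to 0.382). *Cflar*, at chr1:58711508-58758884 on the plus strand, encodes the caspase-8 brake c-FLIP and read 69.1, 57.4 and 79.8 CPM in WT recovery against 90.8, 86.1 and 94.0 CPM in *Cldn2*KO recovery (log2 fold change 0.39 ± 0.14; edgeR adjusted p = 0.145).

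One library of the knockout recovery group stood low for several genes. *Cldn2*KO recovery replicate 1 was the lowest of its group for *Ripk3* (20.3 CPM against 45.4 and 55.0), *Mlkl* (17.5 against 26.8 and 40.1), *Casp8* (169 against 243 and 237) and *Tnfrsf1a*. It was also the only one of its group with *Xist* near 0 (0.643 CPM, against at least 1391). The library of WT recovery with *Xist* near 0, replicate 1, was the highest of its group for *Ripk3* (42.1 CPM against 37.3 and 25.9) and *Mlkl* (40.0 against 36.6 and 36.1). It was also the highest for *Tnfrsf1a* (46.2 against 43.5 and 45.8) but the middle one for *Casp8* (225 against 228 and 208). The part of sex in these values was not tested.

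In AOM/DSS colons no genotype difference was detected in the 10 genes. *Xist* was high in 0 of 3 WT and 2 of 3 *Cldn2*KO libraries here, and with *Xist* above 10 CPM as a term in the model 0 of the 10 were called. None was called in edgeR, none had an unadjusted p under 0.05 (5.6% of all genes did), none was called by DESeq2 or limma-voom, and for none were the groups apart, against 6.38% of all genes apart with lower and 4.92% with higher values in the knockout. Of all genes tested 0.0059% were called, a single gene. *Zbp1* read 99.1, 62.2 and 107 CPM in WT and 71.3, 60.1 and 72.7 CPM in *Cldn2*KO (log2 fold change -0.39, 95% interval -1.45 to 0.67). *Mlkl* read 33.3, 27.0 and 35.4 CPM against 28.4, 27.2 and 29.0 CPM (-0.18, interval -0.64 to 0.29). *Ripk3* read 24.8, 26.4 and 65.5 CPM against 38.7, 24.4 and 34.2 CPM (-0.26, interval -1.04 to 0.51). WT AOM/DSS replicate 3, which held that single high *Ripk3* value, also had the highest summed neutrophil markers of the 18 libraries (600 CPM, against 219 and 265 in its group), and without it the log2 fold change of *Ripk3* was 0.34.

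Averaged over the 3 treatments, *Zbp1* and *Mlkl* were the 2 genes called, both lower in *Cldn2*KO, among 1.21% of all genes. The log2 fold change was -1.79 ± 0.30 for *Zbp1* (edgeR adjusted p = 0.00619) and -0.63 ± 0.13 for *Mlkl* (edgeR adjusted p = 0.0214). *Zbp1* passed in each of 27 alternatives and *Mlkl* in 25, the exceptions being the fits without *Cldn2*KO control replicate 2 and without *Cldn2*KO recovery replicate 2 (edgeR adjusted p = 0.0533 and 0.0566). *Ripk3* had a log2 fold change of -0.48 ± 0.21 and did not pass (edgeR adjusted p = 0.244).

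**Figure D3:**
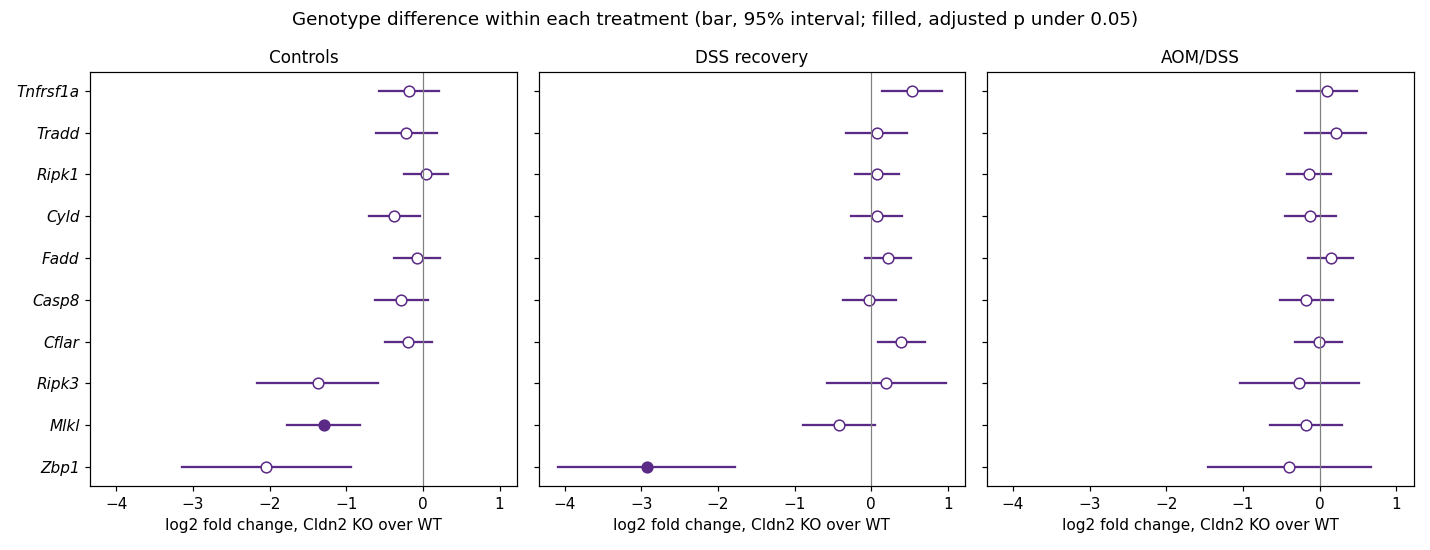
Log2 fold change of *Cldn2*KO over WT for the 10 genes in controls, DSS recovery and AOM/DSS, with bars for the 95% interval; filled points passed an adjusted p under 0.05. The filled points are *Mlkl* in controls and *Zbp1* in recovery, and in AOM/DSS every interval includes 0.

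Genes around the 10 were examined by list. Of 25 genes of TNF receptor signalling and its ubiquitin editing, none was called between genotypes in any treatment in edgeR. In controls, recovery and AOM/DSS, 7, 7 and 1 had an unadjusted p under 0.05 (13.1%, 19.9% and 5.6% of all genes did). DESeq2 called 2, 1 and 0, and limma-voom 5, 4 and 0. Of the 25, 19 had a negative log2 fold change in controls (median -0.20) and 19 a positive one in recovery (median 0.11). In AOM/DSS 14 were negative (median -0.017). Of 10 other death ligands and receptors, 1 was called lower in controls and in recovery, beside 1.05% and 0.425% of all genes. DESeq2 called 2 lower in controls, and 1 higher and 1 lower in recovery. Calls by limma-voom were 1 higher and 2 lower in controls, and 1 higher and 1 lower in recovery. The gene called in edgeR was *Tnfsf10*, which encodes the death ligand TRAIL. It averaged 69.3 ± 10.5 CPM in WT and 9.52 ± 0.663 CPM in *Cldn2*KO controls (SD, n = 3; log2 fold change -2.86 ± 0.30, edgeR adjusted p = 0.000406). In recovery it averaged 36.2 ± 11.4 against 11.1 ± 2.33 CPM (-1.71 ± 0.29, edgeR adjusted p = 0.0184). Of 20 further inputs and regulators of necroptosis, 1 was called in edgeR, lower in *Cldn2*KO controls, beside 1.05% of all genes. In controls 7 of the 20 had an unadjusted p under 0.05 (13.1% of all genes did). DESeq2 called 1 higher and 2 lower there, and limma-voom 1 higher and 6 lower. The gene called in edgeR was *Adar*, whose RNA-editing product keeps Z-form RNA from ZBP1. It averaged 52.0 ± 2.30 CPM in WT and 34.8 ± 1.38 CPM in *Cldn2*KO controls (-0.58 ± 0.12, edgeR adjusted p = 0.0242).

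Interferon-inducible genes were also lower in the knockout. Of 28 such genes, 12 were called lower and 28 had a negative log2 fold change in *Cldn2*KO controls (median -1.85; 1.05% of all genes called lower), and 9 were called lower with 28 negative in recovery (median -1.87; 0.425% of all genes). *Oasl2*, an antiviral gene, fell by 3.00 and *Tap1*, a peptide transporter of antigen presentation, fell by 2.62 on the log2 scale in knockout controls. In recovery the immunity-related GTPase gene *Igtp* fell by 2.98 and the guanylate-binding protein gene *Gbp3* fell by 2.42. In AOM/DSS 0 of 28 were called in edgeR, DESeq2 or limma-voom, with 3 at an unadjusted p under 0.05 and a median of -0.44. Averaged over treatments 22 of 28 were called lower, beside 1.21% of all genes, among them *Ifi44* and *Usp18*.

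Over the 18 libraries, the Pearson correlation of log2 CPM with the mean of these 28 genes was 0.879 for *Zbp1*, 0.762 for *Mlkl* and 0.465 for *Ripk3*, and between -0.3 and 0.329 for the other 7. The genes most like *Zbp1* were *Gbp3* (r = 0.961), *Ifit1bl1* (0.938), *Rtp4* (0.929), *Parp9* (0.924) and *Gbp2* (0.922). Those most like *Mlkl* were *Lgals3bp* (r = 0.929), *Lgals9* (0.878), *H2-Q10* (0.861), *Olfr56* (0.858) and *Ifi47* (0.836). Among the 10 themselves, *Ripk3* and *Mlkl* had r = 0.798, while *Ripk1* and *Tradd*, which act on the same receptor complex, had r = -0.831. These values describe 18 libraries in groups of 3 that share a genotype and a treatment, and have no test.

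**Figure D4:**
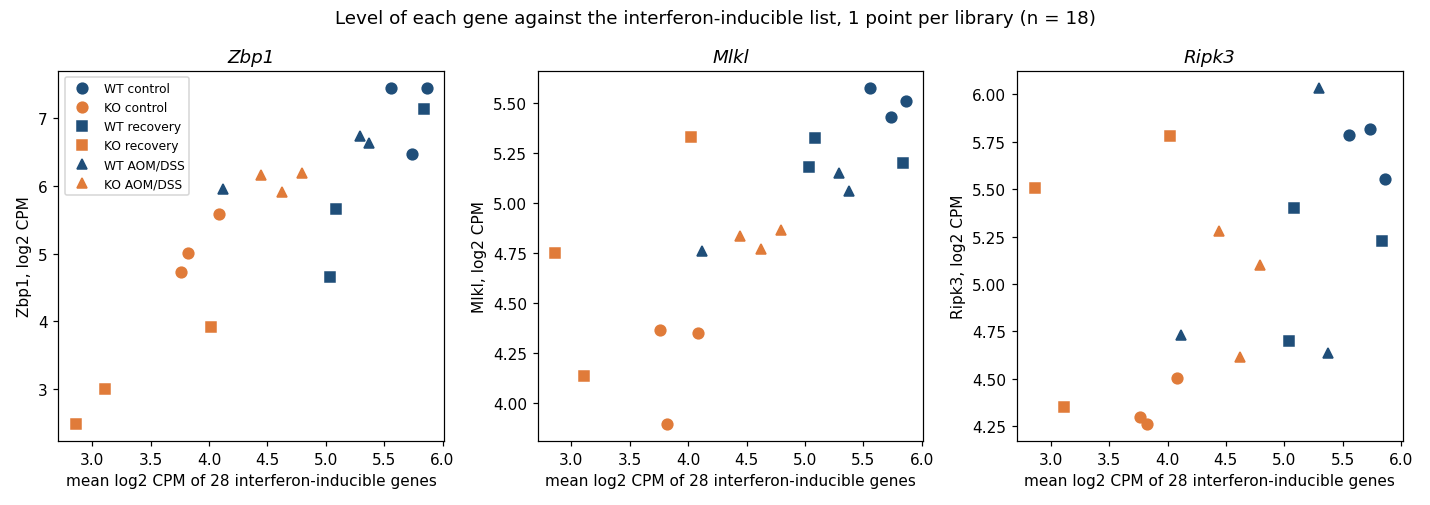
Log2 CPM of *Zbp1*, *Mlkl* and *Ripk3* against the mean log2 CPM of 28 interferon-inducible genes, 1 point per library. WT controls sit at the upper right of each panel, and *Cldn2*KO controls lie below and to the left of every WT control; *Zbp1* lies closest to a line (r = 0.879, n = 18), and 2 *Cldn2*KO recovery libraries lie high for *Ripk3* at low interferon-inducible levels, while all 3 lie lowest of the 18 for *Zbp1*.

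The next comparisons asked how the genes differed between recovered and control colon within a genotype. *Tradd* was lower in recovery in both genotypes, *Cflar* was lower in WT, and *Casp8* was higher and *Zbp1* lower in *Cldn2*KO. In WT 2 of 10 genes were called, both lower, beside 12.2% of all genes called lower. In *Cldn2*KO 3 of 10 were called, 1 higher beside 9.43% of all genes and 2 lower beside 10% of all genes. Groups did not overlap for 6 genes lower and 1 higher in WT recovery (20.9% and 16.8% of all genes) and for 1 lower and 2 higher in *Cldn2*KO recovery (20.5% and 19.9%). The median log2 fold change of the 10 was -0.39 in WT and 0.30 in *Cldn2*KO, beside -0.039 and 0.0037 over all genes. All recovery libraries lacked *Hoxb13* and all controls except WT control replicate 2 had it, so in *Cldn2*KO colon the treatment and this difference cannot be told apart. With *Hoxb13* above 10 CPM as a term in the model, which only WT control replicate 2 sets apart within a group, none of these calls passed. *Xist* was unbalanced as well, high in 2 of 3 recovery libraries of each genotype and in 0 of 6 controls. With *Xist* above 10 CPM as a term, *Tradd* in WT (-0.92, edgeR adjusted p = 0.0193) and *Zbp1* in *Cldn2*KO (-2.13, 0.0419) passed, and *Cflar* in WT (-0.48, 0.0766) and *Casp8* (0.62, 0.0609) and *Tradd* (-0.64, 0.0875) in *Cldn2*KO did not. Marker lists differed between recovered and control colon too. In WT, 5 of 8 epithelial, 7 of 10 macrophage, 5 of 8 B and plasma cell and 5 of 8 smooth muscle markers were called lower. In *Cldn2*KO, 8 of 8 smooth muscle, 7 of 10 macrophage and 3 of 8 B and plasma cell markers were called lower, and 5 of 10 T and NK cell and 3 of 7 neutrophil markers higher. Summed smooth muscle markers went from between 3785 and 5676 CPM to between 704 and 2090 CPM in WT, and from between 7733 and 10145 CPM to between 825 and 1459 CPM in *Cldn2*KO. Their part in the differences of *Tradd*, *Cflar*, *Casp8* and *Zbp1* was not tested.

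*Tradd*, at chr8:105258286-105264609 on the minus strand, encodes the adaptor that binds the death domain of TNFR1. It read 132, 138 and 147 CPM in WT controls and fell to 72.8, 95.6 and 62.7 CPM in recovered WT colon. The groups did not overlap. What part the segment had was not tested, and WT control replicate 2, which lacks *Hoxb13*, read 138 CPM, between the other WT controls. On the log2 scale it fell by 0.85 ± 0.19 (edgeR adjusted p = 0.00613), by 0.88 without WT control replicate 2 (0.00665), and by 0.84 with the *Hoxb13* term (edgeR adjusted p = 0.0557; range over alternatives 1.04e-05 to 0.0557).

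In *Cldn2*KO, *Tradd* stood at 101, 121 and 136 CPM in controls and at 64.5, 76.2 and 102 CPM in recovery. The highest recovery library was just above the lowest control. The difference of -0.56 ± 0.19 on the log2 scale passed (edgeR adjusted p = 0.047). Leaving out knockout control replicate 2 or 3, or recovery replicate 1 or 2, ended the call (edgeR adjusted p 0.107 to 0.188). With the *Hoxb13* term the difference was -0.54 (edgeR adjusted p = 0.55), and over all alternatives it lay between -0.77 and -0.42 (adjusted p 0.0158 to 0.55).

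*Cflar* fell in WT from 88.3, 105 and 88.0 CPM in controls to 69.1, 57.4 and 79.8 CPM after recovery, with no overlap (log2 fold change -0.45 ± 0.14; edgeR adjusted p = 0.0373). In *Cldn2*KO it stood at 90.3, 88.4 and 68.0 CPM in controls and 90.8, 86.1 and 94.0 CPM in recovery, which overlapped (0.14 ± 0.14; edgeR adjusted p = 0.565). The call in WT was lost when any of 5 of the 6 libraries was left out, all but WT recovery replicate 3, with an edgeR adjusted p of at most 0.12. With the *Hoxb13* term the difference was -0.61 (edgeR adjusted p = 0.0596), with the *Xist* term the call was also lost, and over all alternatives the difference lay between -0.61 and -0.25 (adjusted p 0.0227 to 0.139).

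*Casp8*, at chr1:58795374-58847503 on the plus strand, rose in *Cldn2*KO from 140, 142 and 134 CPM in controls to 169, 243 and 237 CPM in recovery. Every recovery library was above every control (log2 fold change 0.64 ± 0.16; edgeR adjusted p = 0.013). In WT the values were 146, 199 and 162 CPM in controls and 225, 228 and 208 CPM in recovery, apart but not called (0.38 ± 0.16; edgeR adjusted p = 0.102). What part the segment had was not tested, and WT control replicate 2, without *Hoxb13*, was the highest of the WT controls at 199 CPM. The *Hoxb13* term, which rests on that control, left 0.27 in *Cldn2*KO (edgeR adjusted p = 0.755) and 0.15 in WT. In WT the difference was 0.49 without that control (edgeR adjusted p = 0.0482; range over alternatives 0.00394 to 0.709). In *Cldn2*KO the edgeR adjusted p was 0.0533 or 0.0594 when control replicate 3 or recovery replicate 2 was left out.

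*Zbp1* fell in *Cldn2*KO from 26.4, 32.2 and 47.7 CPM in controls to 7.87, 5.47 and 14.96 CPM in recovery, without overlap (log2 fold change -1.91 ± 0.52; edgeR adjusted p = 0.0199). In WT the recovery libraries at 50.3, 141 and 25.0 CPM overlapped the controls (-1.02 ± 0.50; edgeR adjusted p = 0.155), and without WT recovery replicate 2 the difference was -1.97 (0.0137; range over alternatives 1.96e-05 to 0.807). The *Hoxb13* term left -0.93 in *Cldn2*KO (edgeR adjusted p = 0.716). The call ended when knockout control replicate 3 or recovery replicate 1 or 2 was left out (edgeR adjusted p 0.0683 to 0.086).

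*Ripk3* and *Mlkl* went in opposite directions in the 2 genotypes without a call. *Ripk3* had a log2 fold change of -0.59 ± 0.37 in WT and 0.98 ± 0.37 in *Cldn2*KO, and *Mlkl* of -0.27 ± 0.22 and 0.60 ± 0.22 (edgeR adjusted p 0.0693 to 0.40). For both genes WT recovery libraries were all below WT controls, while *Cldn2*KO recovery overlapped its controls through replicate 1. Without *Cldn2*KO recovery replicate 1 both passed there, *Ripk3* at 1.30 (edgeR adjusted p = 0.0214; range over alternatives 0.0112 to 0.669) and *Mlkl* at 0.85 (0.00903; range 0.00903 to 0.498), and the groups no longer overlapped. *Fadd*, at chr7:144577318-144582463 on the minus strand, encodes the adaptor that recruits caspase-8. It read 15.9, 14.4 and 14.2 CPM in WT controls and 10.99, 11.98 and 11.8 CPM in WT recovery (-0.36 ± 0.14; edgeR adjusted p = 0.0786). *Cyld*, at chr8:88697028-88751945 on the plus strand, read 57.3, 59.5 and 45.5 CPM in *Cldn2*KO controls and 81.8, 65.7 and 70.1 CPM in *Cldn2*KO recovery (0.42 ± 0.16; edgeR adjusted p = 0.0724). *Ripk1*, at chr13:34002363-34037147 on the plus strand, encodes the kinase at which survival, apoptosis and necroptosis part, and had log2 fold changes of 0.28 ± 0.14 and 0.31 ± 0.14 in WT and *Cldn2*KO, neither called. In AOM/DSS 0 of 10 genes were called against controls in WT and 0 in *Cldn2*KO in edgeR, beside 10.4% and 0.195% of all genes. At an unadjusted p under 0.05 there were 2 in WT (*Tradd* and *Mlkl*, lower, beside 16.9% of all genes) and 1 in *Cldn2*KO (*Mlkl*, higher, beside 8.6%), DESeq2 called 1 and 0, and limma-voom 4 and 2.

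Some AOM/DSS libraries stood apart from the controls without a call. *Tradd* read 105, 100.1 and 79.4 CPM in WT AOM/DSS, all below WT controls (log2 fold change -0.55 ± 0.19; edgeR adjusted p = 0.0678). *Mlkl* had a log2 fold change of -0.51 ± 0.22 in WT and 0.61 ± 0.22 in *Cldn2*KO, and the groups were apart in both, as were 17.3% of all genes with lower values in WT and 15% with higher values in *Cldn2*KO. *Zbp1* and *Ripk3* were also higher in every *Cldn2*KO AOM/DSS library than in every *Cldn2*KO control, with log2 fold changes of 0.94 ± 0.50 and 0.67 ± 0.37 (edgeR adjusted p = 0.391 and 0.405). *Fadd* and *Cflar* were lower in every WT AOM/DSS library than in every WT control (-0.17 ± 0.14 and -0.27 ± 0.14) and not called.

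**Figure D5:**
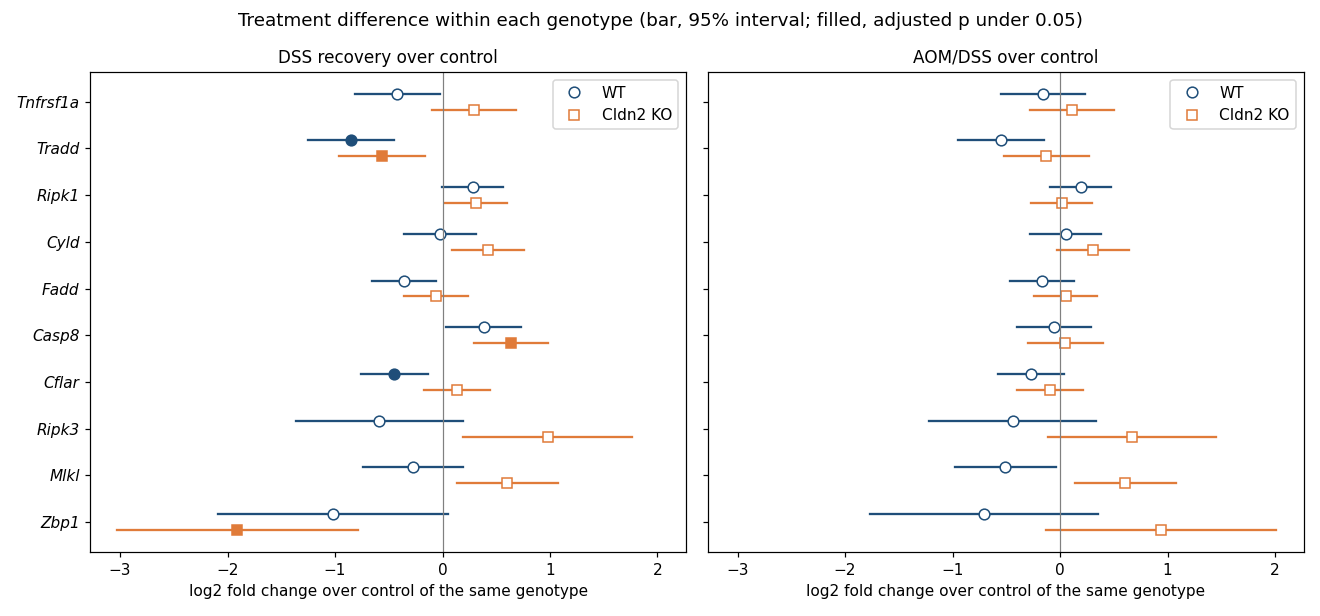
Log2 fold change of DSS recovery and of AOM/DSS over the control of the same genotype, with WT (circles) and *Cldn2*KO (squares) side by side, bars for the 95% interval and filled points for an adjusted p under 0.05. *Tradd* is filled in both genotypes in recovery, *Cflar* in WT, *Casp8* and *Zbp1* in *Cldn2*KO, and no point is filled for AOM/DSS.

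Whether a response differed between genotypes was tested directly as an interaction. None of the 10 genes was called in edgeR for recovery or for AOM/DSS, beside 0.13% and 0.0118% of all genes. For recovery 4 genes had an unadjusted p under 0.05, all with a more positive response in *Cldn2*KO (*Ripk3*, *Mlkl*, *Cflar* and *Tnfrsf1a*), beside 9.74% of all genes in that direction. The differences in log2 response were 1.57 ± 0.52 for *Ripk3* (edgeR adjusted p = 0.14), 0.88 ± 0.31 for *Mlkl*, 0.58 ± 0.20 for *Cflar* and 0.72 ± 0.26 for *Tnfrsf1a* (edgeR adjusted p 0.157 to 0.171 for those 3). Without *Cldn2*KO recovery replicate 1, *Mlkl* passed (edgeR adjusted p = 0.0378; range over alternatives 0.0378 to 0.313). For AOM/DSS 3 genes did (*Mlkl* 1.12 ± 0.31, *Zbp1* 1.65 ± 0.71 and *Ripk3* 1.11 ± 0.52), again in the positive direction, beside 5.41% of all genes. DESeq2 called 0 in both tests and limma-voom called 3 in each. These interactions use the same control groups as the comparisons of genotype and of treatment above, so the low *Cldn2*KO control values of *Mlkl*, *Ripk3* and *Zbp1* enter each of them.

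The same lists were then compared between treated and control colon. The limits from *Hoxb13* and *Xist* given above hold for all of them. In *Cldn2*KO recovery the *Hoxb13* difference and the treatment cannot be told apart. With the *Hoxb13* term, calls over all genes for recovery went from 3767 to 1477 in WT and from 3291 to 133 in *Cldn2*KO. Values of single list genes with these terms are not given. In WT recovery 2 of the 25 TNF receptor signalling genes were called, both lower, beside 12.2% of all genes, where limma-voom called 6 higher and 8 lower: *Tnip1*, whose product ABIN-1 restrains the complex, averaged 104 ± 12.1 CPM in controls and 39.3 ± 1.35 CPM in recovery (log2 fold change -1.41 ± 0.18, edgeR adjusted p = 0.000376). *Tnfaip3*, which encodes the ubiquitin editor A20, averaged 102 ± 57.7 (range 35.5 to 139.6) and 26.0 ± 8.78 CPM (-1.97 ± 0.43, edgeR adjusted p = 0.00549). In *Cldn2*KO recovery 8 were called higher, beside 9.43% of all genes and with the T and NK cell and neutrophil markers already given, and 1, *Tnip1*, lower (-0.76 ± 0.17). Among the 8 was the ubiquitin-binding adaptor *Optn* (1.18 ± 0.30). *Tnf* itself was called close to the threshold (2.95 ± 0.99, edgeR adjusted p = 0.0493) with groups that overlapped, at 0.246 to 1.13 CPM in controls and 0.857 to 11.97 CPM in recovery. In WT AOM/DSS *Tnip1* (-1.12 ± 0.18) and *Rnf31* (-0.62 ± 0.18), which encodes the linear ubiquitin ligase HOIP, were called lower, beside 10.4% of all genes called in either direction. In that comparison 5 of 7 neutrophil markers were called higher, and 4 of 8 epithelial, 5 of 8 colon, 5 of 8 enteric neuron and glia and 3 of 8 smooth muscle markers lower, whose part was not tested. *Cldn2*KO AOM/DSS had 0 of 25 called in edgeR, with 4 at an unadjusted p under 0.05, 2 in DESeq2 and 4 in limma-voom.

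Among the 20 inputs and regulators of necroptosis, recovery in WT had 1 gene called higher, the chaperone gene *Hsp90aa1* (0.68 ± 0.22), and 4 lower, including *Adar* (-0.71 ± 0.12), beside 10% of all genes called higher and 12.2% lower. In *Cldn2*KO recovery *Hsp90aa1* was called lower (-0.71 ± 0.22). In WT AOM/DSS *Pgam5*, a mitochondrial phosphatase gene, was called higher (0.85 ± 0.26) and 3 genes lower, including *Ticam1*, whose product TRIF links Toll-like receptors to RIPK3 (-1.03 ± 0.14), beside 3.81% of all genes called higher and 6.58% lower. Of the 10 death ligands and receptors, *Tnfsf10* was called lower in WT recovery (-0.94 ± 0.28), beside 12.2% of all genes. In *Cldn2*KO recovery *Tnfsf12*, which encodes the ligand TWEAK, was called lower (-1.53 ± 0.33), beside 10% of all genes. There 1 gene was called higher, beside 9.43% of all genes. That gene was *Fasl*, named after its values were seen.

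In edgeR the interferon-inducible genes called by treatment were lower: 7 of 28 in WT recovery beside 12.2% of all genes (*Gbp2* -2.08 ± 0.63 and *Tap1* -1.30 ± 0.35 among them), 3 in *Cldn2*KO recovery beside 10% (*Gbp2* -2.98 ± 0.66 and *Gbp7* -1.67 ± 0.27 among them) and 6 in WT AOM/DSS beside 6.58% (the immunoproteasome genes *Psmb8* -1.54 ± 0.41 and *Psmb9* -1.45 ± 0.31 among them). Some calls went the other way in other tools: limma-voom called 3 higher and 15 lower in WT recovery, and DESeq2 called 1 higher and 5 lower in *Cldn2*KO recovery. In *Cldn2*KO AOM/DSS 0 were called in edgeR with a median of 0.57, 8 had an unadjusted p under 0.05 (15.2% of all genes did), DESeq2 called 1 and limma-voom 9.

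Some counts carry a limit from gene overlap, since the strand setting of the counting was not stated. On the opposite strand, *Serpinb6a* overlaps *Ripk1*, the antisense gene *Faddos* overlaps *Fadd*, and processed pseudogenes overlap *Mlkl* and *Cyld*. On the same strand, the unconfirmed gene model *Gm37760* overlaps *Casp8* and the pseudogene *Gm17084* overlaps *Ripk1*. Reads of these 5 genes are uncertain to the extent that such partners are transcribed.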

How the data were processed

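RNA was sequenced from colon of WT and *Cldn2*KO mice in 6 groups of 3 libraries. The authors aligned the reads (TopHat2 in the methods, HISAT2 in the submitters' processing notes) to GRCm38 and used featureCounts to assign them to genes. What was deposited are unnormalized counts for each gene in each of 2 sequencing lanes; versions, annotation and strand setting are not given in the sources used here. Lanes were summed. Symbols came from GENCODE M21, which matched 47310 of 47729 genes.

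edgeR 4.0.16 in R 4.3.3 kept 16937 genes (filterByExpr), scaled them with TMM and fitted 1 mean per group to all 18 libraries with robust quasi-likelihood F tests. A call is an adjusted p under 0.05 after Benjamini-Hochberg adjustment over all genes kept. CPM use TMM library sizes, RPKM add the exon length in the table, and log2 CPM for correlations have a prior count of 2. Values are means ± SD, and fold changes carry the SE or 95% interval of the fit. Scripts were tested on simulated data.

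Beyond the 10 genes, at most 2 called genes per list, comparison and direction are named, those with the largest fold change and a mean of at least 1 CPM, and for genes called between genotypes the 5 best correlated genes; some genes that this rule names are not reported here. The 10 genes and all lists were chosen with earlier results of these data known. Marker lists covered epithelium, colon, T and NK cells, B and plasma cells, macrophages, neutrophils, smooth muscle, enteric neurons and glia, endothelium, distal colon Hox and sex-linked genes. Alternatives were DESeq2 1.42.0, limma-voom (limma 3.58.1), other scaling and filters, only the groups compared, covariates, a replicate block and leaving out each library.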

Additional observations from a re-analysis of the deposited data

How the results depend on the processing

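Counts of the 10 genes called depended on the model. Controls (1 called between genotypes) gave 3 with DESeq2 and limma-voom and 2 with only the groups compared or the *Hoxb13* term; recovery (1) gave 0 without a filter, 2 with limma-voom and 0 with only the groups compared; AOM/DSS kept 0 throughout. Recovery against control in WT (2) gave 3 with DESeq2, 1 without a filter, 7 with limma-voom, 1 with only the groups compared, 1 with the *Xist* term and 0 with the *Hoxb13* term; in *Cldn2*KO (3) it gave 4 with DESeq2, 1 without a filter, 6 with limma-voom, 1 with the *Xist* term and 0 with the *Hoxb13* term. AOM/DSS against control (0) gave 1 with DESeq2 and 4 with limma-voom in WT, and 2 with limma-voom and 1 with only the groups compared in *Cldn2*KO. Both interactions (0) gave 3 with limma-voom. The cause was not tested.

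Leaving out 1 library gave 0 to 2 between genotypes in controls, 0 to 2 in recovery and 1 to 2 averaged, 1 to 2 for recovery in WT, 0 to 3 in *Cldn2*KO, 0 to 1 for the recovery interaction (*Mlkl*, without *Cldn2*KO recovery replicate 1), and 0 in the other tests. The count was 0 in controls without *Cldn2*KO replicate 1 or 2, in recovery without replicate 2 of either genotype, and for recovery in *Cldn2*KO without control replicate 3 or recovery replicate 2; it was 2 in controls without WT replicate 2 and in recovery without *Cldn2*KO replicate 1.

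Over 1810 alternative values of 100 pairs of gene and comparison, 71 changed sign, in 24 pairs of which 0 were called and whose log2 fold changes were at most 0.89 in size. Among the pairs described, *Ripk3* between genotypes in AOM/DSS became 0.21 with limma-voom and ranged from -0.50 to 0.34 with 1 library left out (0.34 without WT replicate 3). *Ripk3* between genotypes in recovery ranged from -0.095 to 0.51 (-0.095 without *Cldn2*KO replicate 3 and -0.0069 without WT replicate 3). The recovery interaction of *Zbp1* became 0.21 with limma-voom and ranged from -1.39 to 0.046 (0.046 without WT recovery replicate 2).

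Over all genes, calls between genotypes in controls (199) ranged from 25 to 2552, in recovery (165) from 3 to 1902 and in AOM/DSS (1) from 1 to 4. Recovery against control gave 1477 to 8125 in WT (3767) and 133 to 5757 in *Cldn2*KO (3291), AOM/DSS 7 to 3033 in WT (1761) and 4 to 3107 in *Cldn2*KO (33). Interactions gave 0 to 1762 for recovery (22) and 0 to 299 for AOM/DSS (2), and the genotype average (254) gave 113 to 2015.

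Only control labels carry replicate numbers. Same-numbered controls correlated at 0.157, 0.00234 and 0.0794 in their deviations, and not every library correlated best with its own number, so the numbers were not taken to pair libraries. With the replicate block in the controls 1 of the 10 genes was called between genotypes there, among 179 genes, and *Tradd* for recovery in *Cldn2*KO had an edgeR adjusted p of 0.0578. With 3 libraries a group, the intervals given beside uncalled genes bound what could be detected.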
